A study of Mus musculus with 10 samples.

Results

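The unfolded protein response genes were measured in epididymal white adipose tissue (eWAT), the fat pad along the epididymis, of 10 mice. They were chosen by name as *Hspa5*, *Hsp90b1*, *Calr*, *Pdia4*, *Dnajb9*, *Herpud1*, *Xbp1*, *Atf4*, *Ddit3* and *Trib3*. These 10 of the 34797 gene names on the array had 12 of its 55681 non-control probes, *Dnajb9* and *Atf4* having 2 probes each and the other genes 1. All 12 probes were well above background in both dyes on all 10 arrays. The mice formed 1 group of adult wildtype males, given as C57BL/6J in one label and as C57BL/6JOlaHsd in another. From an age of 9 weeks they had eaten a purified low fat diet for 3 weeks and then a high fat diet (HFD) for 12 weeks at 29°C, which is thermoneutral for mice. Desferrioxamine (DFO), which binds iron, had been injected daily for 5 days at 100 mg/kg body weight, and food was removed for 2 hours before the eWAT was taken. Each array carried Cy5-labelled RNA of 1 mouse and a Cy3-labelled pool of all samples of the wider study, controls and these mice included. The log2 ratio of Cy5 over Cy3 was therefore compared between mice only and was not tested against 0. No untreated mice were analysed here, so no value shows an effect of DFO or of the diet.

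The unfolded protein response is the reaction of a cell to unfolded proteins in the endoplasmic reticulum (ER), the compartment where secreted and membrane proteins are folded. The sensors IRE1, PERK and ATF6 start it. IRE1 splices the *Xbp1* transcript and ATF6 is cut to a free transcription factor, and both raise chaperones and the machinery that removes misfolded proteins, while PERK phosphorylates eIF2alpha, which slows translation and raises translation of ATF4, with *Ddit3* (CHOP) and *Trib3* among its targets. Adipocytes secrete adipokines and fill with lipid, and this response is often studied in the fat of obese animals. The array does not distinguish spliced from unspliced *Xbp1*, and it measures neither phosphorylation nor protein.

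The promoters of 4 of these genes are shown because they carry the ER stress element or the related ERSE-II, both described here. RefSeq promoter windows (GRCm38.p6) from 250 bases before to 50 bases after the annotated start were found for all 10 genes. The ER stress element, which ATF6 and XBP1 with NF-Y are known to bind, was searched on both strands as CCAAT and CCACG with 9 free bases between them, and was present in 0.119% of 32851 windows. It was found in 3 of the 10 genes, *Hspa5*, *Hsp90b1* and *Calr*. The related ERSE-II, ATTGG and CCACG with 1 free base between them, was in 0.0365% of windows and among these genes in *Herpud1* alone. The 250 bases before the start are written below in the direction of the gene, with these matches in capitals.
*Hspa5*, chr2:34771840-34772089, plus strand: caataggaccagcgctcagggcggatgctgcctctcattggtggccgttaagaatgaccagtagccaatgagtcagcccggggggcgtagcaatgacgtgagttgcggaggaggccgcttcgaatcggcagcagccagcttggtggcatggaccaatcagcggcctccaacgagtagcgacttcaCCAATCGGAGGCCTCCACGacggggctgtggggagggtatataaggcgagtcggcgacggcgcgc
*Hsp90b1*, chr10:86705445-86705694, minus strand: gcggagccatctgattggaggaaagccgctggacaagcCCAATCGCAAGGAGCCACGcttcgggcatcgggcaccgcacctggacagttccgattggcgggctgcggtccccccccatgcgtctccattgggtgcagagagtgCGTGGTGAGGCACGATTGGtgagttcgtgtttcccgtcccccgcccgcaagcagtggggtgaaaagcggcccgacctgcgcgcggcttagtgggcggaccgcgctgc
*Calr*, chr8:84846932-84847181, minus strand: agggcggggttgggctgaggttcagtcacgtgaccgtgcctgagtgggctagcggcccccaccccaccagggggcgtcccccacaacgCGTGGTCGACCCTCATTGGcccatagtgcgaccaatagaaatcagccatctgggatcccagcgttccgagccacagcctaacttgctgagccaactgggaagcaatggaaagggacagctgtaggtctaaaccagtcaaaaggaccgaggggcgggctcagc
*Herpud1*, chr8:94386179-94386428, plus strand: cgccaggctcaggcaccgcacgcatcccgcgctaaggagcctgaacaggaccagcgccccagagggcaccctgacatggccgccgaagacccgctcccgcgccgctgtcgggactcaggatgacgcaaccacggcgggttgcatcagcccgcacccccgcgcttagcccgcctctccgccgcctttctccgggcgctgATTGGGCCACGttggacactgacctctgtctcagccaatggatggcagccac
The *Hspa5* match spanned 65 to 47 bases before the start, and *Hsp90b1* had 2 matches, 1 from 212 to 194 bases before it and 1 on the opposite strand that ended 89 bases before it. The *Calr* match, also on the opposite strand, lay 162 to 144 bases before the start. In *Herpud1* the ERSE-II lay 52 to 42 bases before it. The UPRE core TGACGTGG, held by 0.676% of windows, was not in these windows of the 10 genes. The amino acid response motif TGATGNAA (CARE), which ATF4 dimers are known to bind, was in 3.97% of windows and in those of *Herpud1* and *Trib3*. In *Trib3* the match lay 14 to 21 bases after the start. The C/EBP-ATF composite TTGCATCA was in 0.895% of windows, and its match in *Herpud1*, 112 to 105 bases before the start, was on the same bases as the CARE match there. A match of letters is a description of the sequence and does not show binding.

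**Figure D1:**
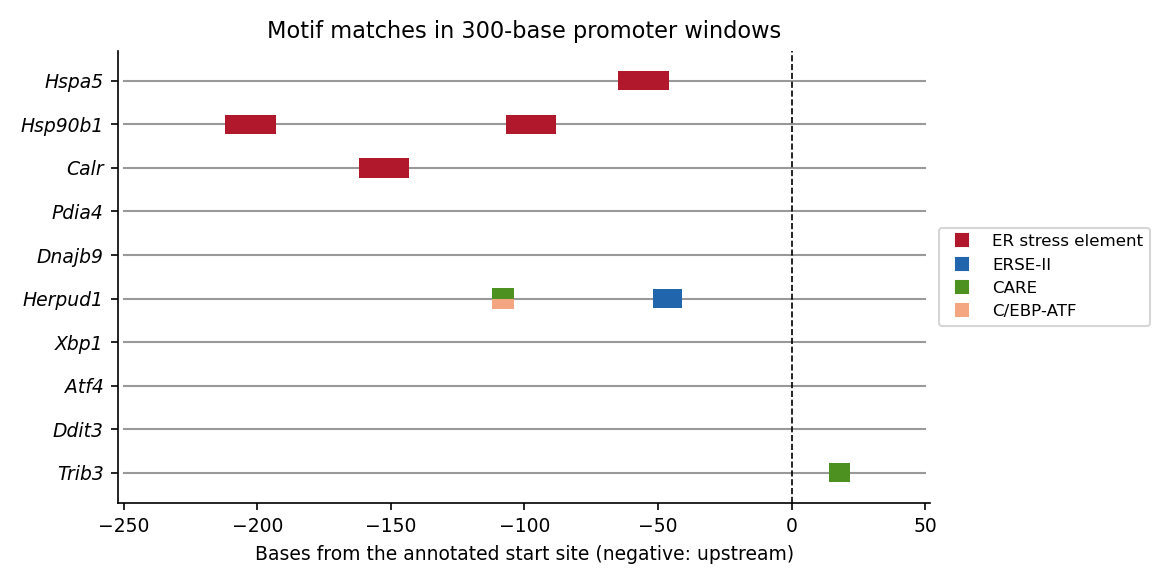
Motif matches in the promoter windows of the 10 genes, with the distance from the annotated start site in bases on the x axis and 1 line per gene. Red boxes mark the ER stress element in *Hspa5*, *Hsp90b1* and *Calr*, the blue box the ERSE-II in *Herpud1*, and green and orange boxes the CARE and C/EBP-ATF matches, which share their bases in *Herpud1*.

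Median Cy5 signals of the arrays lay between 54.8 and 81.3, against a median local background of 32 to 37, and no spot was saturated. Mice 4, 5, 6 and 7 stood on one side of the first principal component of all expressed probes and the other 6 mice on the opposite side. The mean log2 ratio of 12 adipocyte markers lay between -1.98 and -1.13 in mice 4 to 7 and between -0.17 and 0.53 in the other mice. Of the 12 markers, 11 were lower in each of mice 4 to 7 than in any other mouse, and *Cd36* was higher, while all 12 were well above background on all arrays. The mean over 13 macrophage markers lay between 0.70 and 1.00 in mice 4 to 7 and between -1.12 and -0.05 in the others, and all 13 were higher in each of mice 4 to 7. For 8 plasma cell markers the means overlapped, from -0.21 to -0.0044 and from -0.19 to 0.06. The mesothelium, endothelium and blood lists also had lower means in mice 4 to 7 without overlap. Over 10 mesothelium markers the mean ranged from -1.58 to -1.12 in these mice, against -0.56 to 0.32 in the remaining mice. Over 7 endothelium markers it ranged from -0.72 to -0.46, against 0.05 to 0.26. Over the 6 expressed of 8 blood markers it ranged from -1.53 to -0.77, against -0.63 to 0.65. Lower in each of mice 4 to 7 than in any other mouse were 7 of 10 mesothelium, 6 of 7 endothelium and 3 of 8 blood markers. This stands beside 21.3% of all expressed probes. The blood markers were *Hba-a1*, *Hbb-b1* and *Alas2*, while *Slc4a1*, *S100a8* and *S100a9* overlapped. The means of the fibroblast and the epididymis epithelium markers overlapped. The adipocyte, macrophage, mesothelium, endothelium and blood values go along with every gene described below that parts the same mice, and their part in it was not tested. In whole tissue, fewer cells of a type and less RNA per cell cannot be told apart. Because these mice formed separate clusters, correlations were taken over the 6 mice alone for genes that part them.

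Among the unfolded protein response genes, *Hspa5*, *Hsp90b1*, *Calr*, *Dnajb9* and *Atf4* had higher log2 ratios in each of mice 4 to 7 than in any other mouse, and *Herpud1* had lower ones. Of all 27718 expressed probes with a value in every mouse, 17.9% were above all other mice in mice 4 to 7 and 21.3% were below them. *Hspa5*, *Calr*, *Dnajb9* and *Atf4* kept this order in each of 4 other normalizations, chosen for this purpose after the data had been seen. Among these, the deposited values are log2 signals and not ratios to the pool. *Hsp90b1* overlapped in the scanner software's log ratio, and *Herpud1* overlapped with median centring in place of loess and in the deposited values. *Xbp1* was mostly low in mice 4 to 7 with overlap, and *Pdia4*, *Ddit3* and *Trib3* showed no such order. The differences were small: the highest mouse exceeded the lowest by between 1.24-fold for *Pdia4* and 1.88-fold for *Calr* on the brightest probe of each gene.

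**Figure D2:**
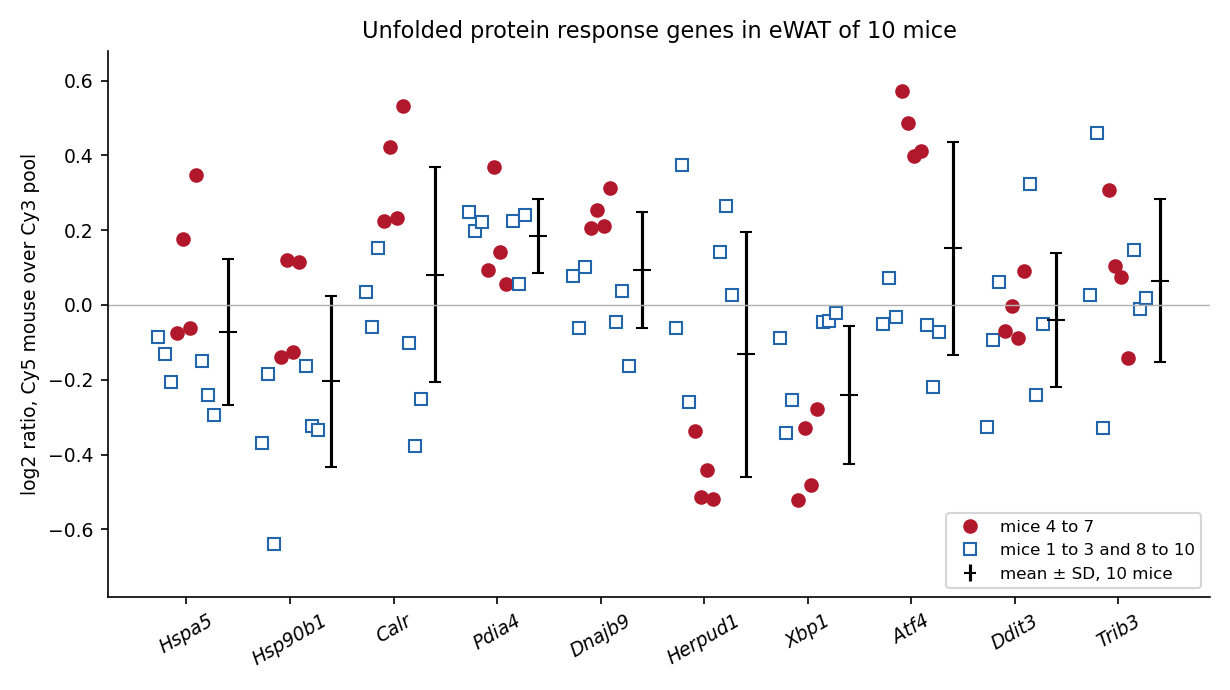
Log2 ratio of Cy5 (mouse) over Cy3 (common pool) of the 10 genes, brightest probe each, with 1 point per mouse in order of mouse number within each gene. Filled red points are mice 4 to 7, open blue squares the other 6 mice, and the black bar is the mean ± SD over 10 mice. Red points lie above all squares for *Hspa5*, *Hsp90b1*, *Calr*, *Dnajb9* and *Atf4* and below them for *Herpud1*, which overlaps with median centring.

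*Hspa5* encodes BiP, the main Hsp70 chaperone of the ER, which also keeps the sensors inactive. Its probe (mm9 chr2:34631913-34631972, plus strand) had log2 ratios of -0.08, 0.18, -0.06 and 0.35 in mice 4, 5, 6 and 7. The other 6 mice lay between -0.29 and -0.09. Mice 5 and 7 thus stood above all others, whereas mice 4 and 6 were just above the next mouse, mouse 1 at -0.09. The mean was -0.07 ± 0.20 (SD, n = 10).

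*Hsp90b1* encodes GRP94, the Hsp90 chaperone of the ER. On its probe (mm9 chr10:86153770-86153829, minus strand) the lowest log2 ratio was -0.64 in mouse 3, the median -0.17 and the highest 0.12 in mouse 5, with a mean of -0.20 ± 0.23 (SD, n = 10). Mice 4 and 6, at -0.14 and -0.13, were close to mouse 8 at -0.16 and mouse 2 at -0.18. As for *Hspa5*, mice 5 and 7 had the highest values.

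*Calr* encodes calreticulin, a lectin chaperone that binds calcium and glycoproteins. Its probe (mm9 chr8:87366192-87366251, minus strand) ranged from -0.38 in mouse 9 to 0.53 in mouse 7 with a median of 0.09, and the mean was 0.08 ± 0.29 (SD, n = 10). Mice 4, 5 and 6 had 0.22, 0.42 and 0.23, and the next mouse was mouse 3 with 0.15. *Calr* had the widest span among the chaperones of the 10 genes.

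*Pdia4* encodes ERp72, an isomerase that forms disulfide bonds in new proteins. Its log2 ratio lay between 0.06 in mouse 9 and 0.37 in mouse 5 with a median of 0.21 and a mean of 0.18 ± 0.10 (SD, n = 10). Mice 4, 6 and 7 (0.09, 0.14 and 0.06) were among the lower values, and mouse 5 was the highest, so that mice 4 to 7 overlapped the others at both ends. The SD of this ratio was larger than that of only 9.23% of the probes expressed in both channels.

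*Dnajb9* encodes ERdj4, a J-domain co-chaperone of BiP and a known target of XBP1. Its brighter probe (mm9 chr12:45307313-45307372, minus strand) had log2 ratios between 0.21 and 0.31 in mice 4 to 7 and between -0.16 and 0.10 in the other mice, with a mean of 0.09 ± 0.15 (SD, n = 10). The dimmer probe of the same transcript (mm9 chr12:45308272-45308331) disagreed: mouse 7 was its lowest value, at -0.37, and mouse 4 its highest, at 0.14. Its mean raw Cy5 signal was 129, against 1443 for the brighter probe. Over the 6 mice the probes had an r of 0.25, and the *Dnajb9* values rest on the brighter probe alone.

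*Herpud1* encodes HERP, a membrane protein of the ER that takes part in ER-associated degradation (ERAD), the removal of misfolded proteins to the proteasome. Its probe (mm9 chr8:96919117-96919176, plus strand) had log2 ratios of -0.34, -0.51, -0.44 and -0.52 in mice 4, 5, 6 and 7. The other mice ranged from -0.26 in mouse 3 to 0.37 in mouse 2. The order was thus opposite to that of the chaperones, and the mean was -0.13 ± 0.33 (SD, n = 10).

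*Xbp1* encodes the transcription factor that is active after splicing by IRE1. All 10 log2 ratios of its probe (mm9 chr11:5425816-5425875, plus strand) were below 0, from -0.52 in mouse 4 to -0.02 in mouse 10, with a median of -0.27 and a mean of -0.24 ± 0.18 (SD, n = 10). Mice 5, 6 and 7 had -0.33, -0.48 and -0.28. Mouse 2 at -0.34 lay among them, so that the mice overlapped, while mice 1, 8, 9 and 10 were all above -0.10.

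*Atf4* encodes the transcription factor of the PERK arm, which is known to be raised mostly through translation. The brighter probe (mm9 chr15:80087902-80087961, plus strand) had log2 ratios of 0.57, 0.49, 0.40 and 0.41 in mice 4 to 7 and between -0.22 and 0.07 in the other mice. The second probe of the transcript (mm9 chr15:80086639-80086698) had between 0.53 and 0.63 in mice 4 to 7 and between -0.43 and -0.12 in the others. Both probes thus parted the same mice with a clear gap, and mouse 4, not mouse 7, was the highest. Within the 6 mice, the probes had an r of 0.31.

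*Ddit3* encodes CHOP, a transcription factor linked to cell death under prolonged ER stress. Its log2 ratio was lowest in mouse 1, at -0.33, and highest in mouse 8, at 0.32, with a median of -0.06 and a mean of -0.04 ± 0.18 (SD, n = 10). Mice 4 to 7 lay in the middle, between -0.09 and 0.09. The genes that set mice 4 to 7 apart therefore did not include *Ddit3*.

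*Trib3* encodes a pseudokinase that is a known target of ATF4 and CHOP and binds AKT. Its probe (mm9 chr2:152163161-152163220, minus strand) was highest in mouse 2, at 0.46, and lowest in mouse 3, at -0.33, with a median of 0.05 and a mean of 0.07 ± 0.22 (SD, n = 10). Mice 4 to 7 had 0.31, 0.10, 0.07 and -0.14. The 4 mice that were alike in *Atf4* were thus spread over a wide range in *Trib3*.

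Each of 5 slides held 2 of the arrays, and slides 2 and 4 each held 1 of mice 4 to 7 beside 1 other mouse. The *Atf4* log2 ratio was 0.61 higher in mouse 4 than in mouse 3 on slide 2, and 0.47 higher in mouse 7 than in mouse 8 on slide 4. For *Hspa5* these differences were 0.13 and 0.50, for *Hsp90b1* 0.50 and 0.28, for *Calr* 0.07 and 0.63, and for *Dnajb9* 0.10 and 0.36. *Herpud1* was lower by -0.08 and -0.66, and *Xbp1* by -0.27 and -0.23. For all of these genes but *Xbp1*, the direction within both slides follows from the order of the mice given above and adds no support to it. *Xbp1*, *Pdia4* (-0.13 and -0.17) and *Ddit3* (-0.13 and -0.23) also had the same direction within both slides, whereas *Trib3* had 0.64 and -0.29. How many of all probes had the same direction in both was not counted. By limma's moderated F test 0 of 27718 probes differed between slides after adjustment (0.0% called, 1136 at an unadjusted p under 0.05), and the lowest unadjusted p of the 10 genes was 0.0805, for *Calr*.

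The next comparison asked whether a gene varied more between the mice than the repeated pool varied between arrays. Log2 Cy5 varied more than log2 Cy3 in 8 of the 10 genes (Pitman-Morgan test, Benjamini-Hochberg adjusted over 25049 probes), against 59.8% of all probes tested. The SD over arrays was 6.70 times as large in Cy5 as in Cy3 for *Herpud1*, 6.55 times for *Calr* and 5.40 times for *Hsp90b1*, with adjusted p-values of 8.98e-05, 4.41e-06 and 5.41e-05. It was 3.63 times for *Trib3* (adjusted p = 0.00274), 3.59 times for *Hspa5* (0.00299) and 3.57 times for *Atf4* (0.00118). *Xbp1*, at 2.72 times (0.0200), and *Dnajb9*, at 2.67 times (0.00511), were closer to the threshold. Thus *Trib3* varied more in Cy5 than in the pool although it did not part mice 4 to 7 from the others. Cy3 was the more variable dye in 0.164% of all probes tested. Because the dyes were not swapped, a larger spread of the Cy5 dye itself cannot be told apart here from differences between mice.

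*Pdia4* and *Ddit3* did not pass this test. Their Cy5 SD was 1.37 times (adjusted p = 0.279) and 1.75 times (adjusted p = 0.181) that of Cy3, and the dimmer *Dnajb9* probe had 1.18 times (adjusted p = 0.702). These were also dim probes, with mean raw Cy5 signals of 677, 555 and 129. The dimmer *Atf4* probe, at 449, did pass, with an SD ratio of 4.40 and an adjusted p of 0.000470. What part signal had in the missing calls was not tested. The sequences of the probes that did not pass are shown so that they can be matched to other designs, all letters in lower case since no base is singled out.
*Pdia4*, mm9 chr6:47746516-47746575, minus strand: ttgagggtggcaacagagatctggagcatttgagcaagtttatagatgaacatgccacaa
*Ddit3*, mm9 chr10:126732518-126732821, plus strand: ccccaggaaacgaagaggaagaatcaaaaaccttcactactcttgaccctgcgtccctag
*Dnajb9*, dimmer probe, mm9 chr12:45308272-45308331, minus strand: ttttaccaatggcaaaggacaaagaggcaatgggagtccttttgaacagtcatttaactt
The *Ddit3* probe has 60 bases but spans 304 bases of mm9, so its target is interrupted in the genome. The GC content of the 12 probes ranged from 35.0% to 51.7%. The exon or untranslated region under each probe was not given in the sources used here.

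**Figure D3:**
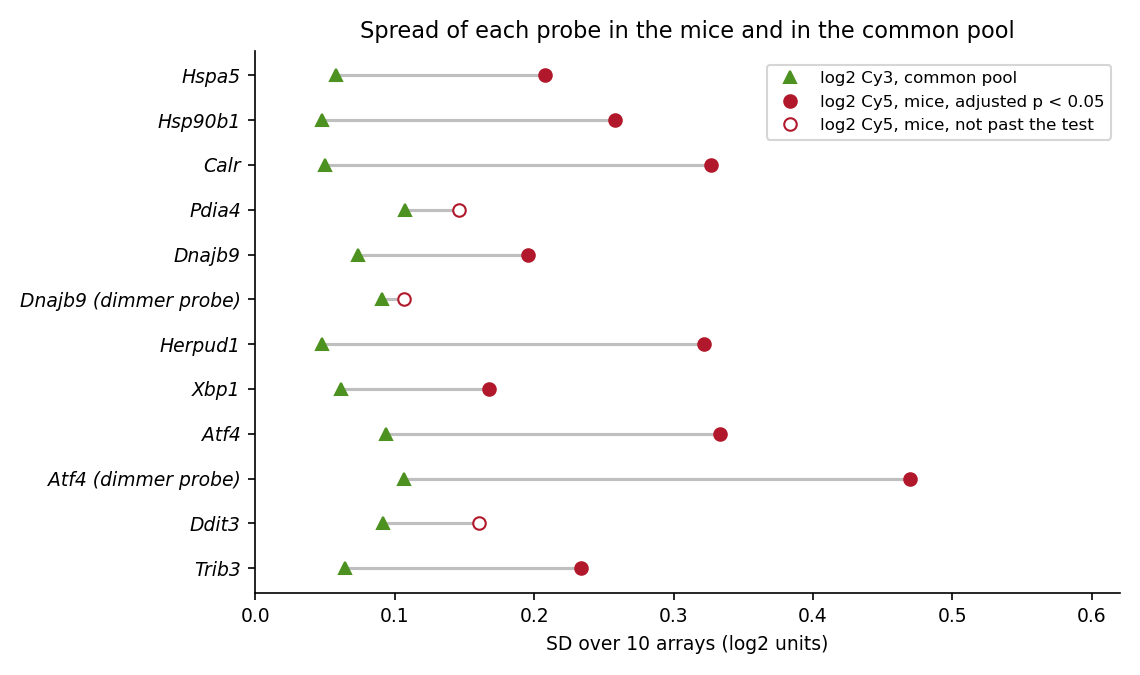
SD over the 10 arrays, in log2 units, of each of the 12 probes in the common pool (Cy3, green triangles) and in the mice (Cy5, circles). Filled circles passed the Pitman-Morgan test, and the open circles of *Pdia4*, *Ddit3* and the dimmer *Dnajb9* probe did not.

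This count depended on the normalization. Without normalization between arrays, 2 genes (*Hspa5* and *Hsp90b1*) passed, beside 18.7% of all probes, and with median centring in place of loess 4 did (*Hsp90b1*, *Herpud1*, *Atf4* and *Trib3*), beside 40.3%. With slide as a block it was 6 of the 10 genes, beside 41.2%.

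*Hspa5* stood for the chaperone arm, and the log2 ratio of every expressed probe was fitted on that of *Hspa5* over the 10 mice with limma. *Calr*, *Hsp90b1*, *Dnajb9* and *Atf4* rose with *Hspa5* and *Herpud1* fell, so that 5 of the other 9 genes passed, with p-values adjusted over 27807 probes. Of all these probes 13.6% rose with *Hspa5* and 17.1% fell, together 30.7%. The log2 ratio of *Calr* rose by 1.28 ± 0.26 (SE) per unit of *Hspa5* (adjusted p = 0.0163), that of *Atf4* by 1.03 ± 0.34 (0.0401), that of *Hsp90b1* by 0.93 ± 0.25 (0.0209) and that of *Dnajb9* by 0.64 ± 0.19 (0.0313). *Herpud1* had a slope of -1.15 ± 0.39 (adjusted p = 0.0440).

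The remaining genes did not pass. Slopes were -0.38 for *Xbp1* (limma adjusted p = 0.340), 0.19 for *Ddit3* (0.663), -0.09 for *Trib3* (0.869) and -0.03 for *Pdia4* (0.934). *Pdia4* is a chaperone like *Hspa5* and *Hsp90b1*, and its value in mouse 7, where *Hspa5* was highest, was its second lowest.

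These calls, more than the slopes, depended on mice 5 and 7. Without mouse 5, 0 of the 9 genes and 0 of all probes passed limma's test (9736 probes at an unadjusted p under 0.05), and without mouse 7 these counts were also 0 (10171 unadjusted). Adjusted p-values of *Calr* were then 0.0629 and 0.0511. The slopes without mouse 5 and without mouse 7 were 1.25 and 1.55 for *Calr*, 0.84 and 1.17 for *Hsp90b1*, 0.95 and 1.58 for *Atf4*, 0.63 and 0.79 for *Dnajb9*, and -1.06 and -1.47 for *Herpud1*, so that no sign changed. Without mouse 8, 9 or 10, there were 3, 2 and 2 genes. Over the 6 mice alone 0 genes and 0 probes passed (1164 unadjusted), and the r with *Hspa5* was 0.57 for *Calr* (exact permutation p = 0.243, rho 0.60, p = 0.242), 0.26 for *Hsp90b1* (p = 0.642, rho 0.09, p = 0.919) and 0.08 for *Herpud1* (p = 0.882, rho 0.03, p = 1). With median centring 10834 probes rose and 125 fell, against 3778 and 4766 with loess, and the slope of *Herpud1* became 0.30 (adjusted p = 0.461).

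**Figure D4:**
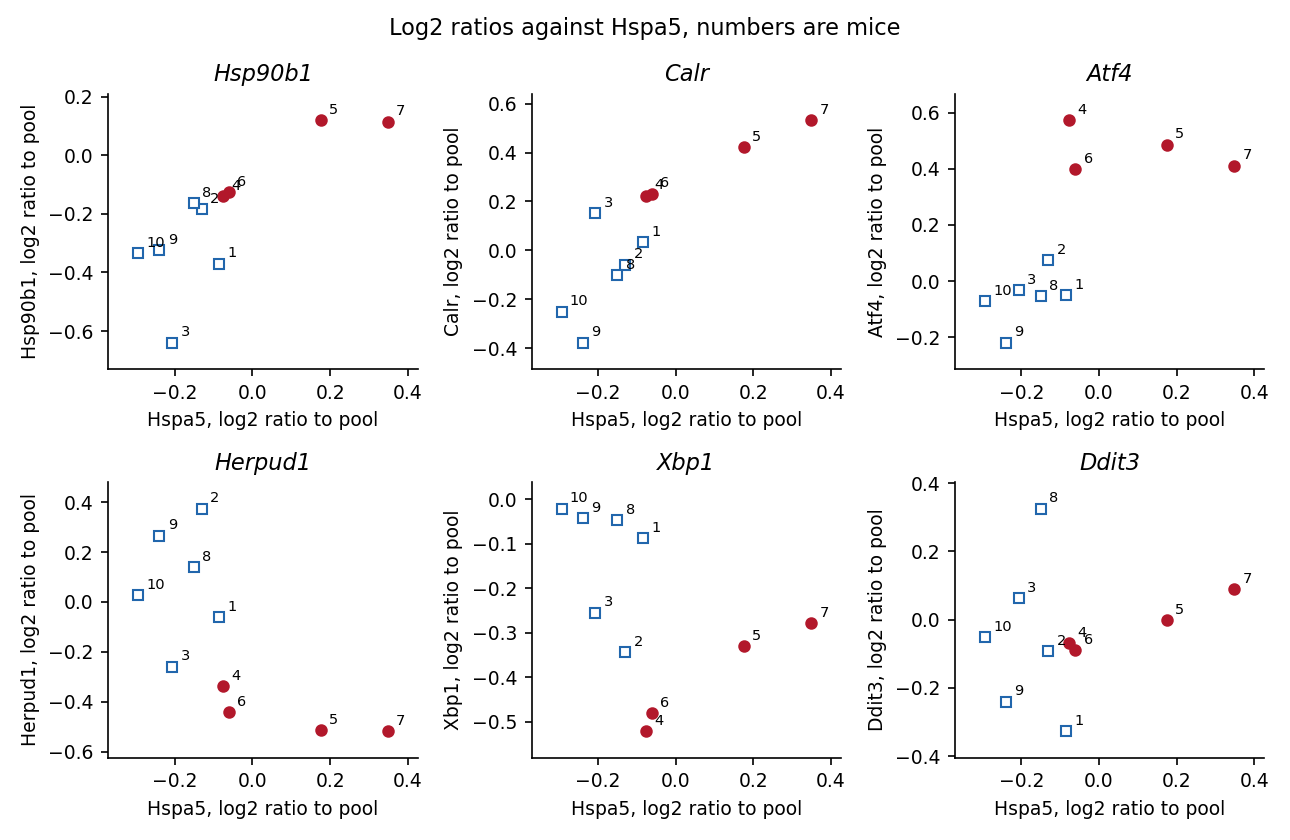
Log2 ratio of 6 genes against that of *Hspa5*, both relative to the common pool, with 1 point per mouse and the mouse number beside it. Filled red points are mice 4 to 7 and open blue squares the other mice. *Hsp90b1* and *Calr* were highest in mice 5 and 7, which were also highest in *Hspa5*, *Atf4* was higher and *Herpud1* lower in mice 4 to 7 than in the other mice, though *Herpud1* overlapped with median centring, and *Xbp1* and *Ddit3* overlapped between them.

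*Ddit3* stood for the PERK arm in the same fit. With limma 0 of the other 9 genes and 0 of 27807 probes were related to it after adjustment (0.0% called, 225 at an unadjusted p under 0.05), and the adjusted p was 1.00 for each of the 9. The slope of *Atf4* on *Ddit3* was 0.23 ± 0.51 (SE) and that of *Trib3* was -0.13 ± 0.41, so that neither sign is given by these data. Over the 10 mice *Ddit3* and *Trib3*, which do not part the mice, had an r of -0.11 (permutation p = 0.771) and a rho of -0.16 (p = 0.656), and leaving out mice 8 and 1, the farthest from the middle in *Ddit3*, gave an r of -0.45.

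Across the 45 pairs of the 10 genes, r over the 6 mice was above 0 for 21 pairs and below 0 for 24, with a median of -0.01. Over all pairs of 20211 expressed genes the median was 0.003. The pair with the highest r over the 6 mice was *Hsp90b1* and *Trib3* (r = 0.89, exact permutation p = 0.0347; rho = 0.71, p = 0.136), and leaving out the 2 mice most distant in *Hsp90b1* gave 0.95. The lowest was *Xbp1* and *Atf4* (r = -0.73, exact permutation p = 0.0722; rho = -0.94, p = 0.0167), and leaving out the 2 mice most distant in *Xbp1* gave -0.27. Too few mice remain after this step for either value to show what the relation rests on. These p-values are not adjusted for the 45 pairs. *Pdia4*, *Xbp1*, *Ddit3* and *Trib3* did not part the mice, and over all 10 mice r of their 6 pairs lay between -0.32 and 0.16.

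Other genes of the pathway were taken by role and read from the same fit on *Hspa5*, in which 13.6% of all probes rose and 17.1% fell. Of 20 further ER chaperones and foldases, all expressed, 11 rose with *Hspa5* and 1 fell, and the median slope was 0.69, against -0.03 over all probes tested. *Creld2*, an ER protein raised under ER stress, had a slope of 1.78 ± 0.26 (SE), *Manf*, a secreted ER stress protein, 1.27 ± 0.23 and *Sdf2l1*, part of a BiP complex, 2.32 ± 0.44, each with an adjusted p of 0.0163. The log2 ratio of *Sdf2l1* lay between 0.53 and 0.85 in mice 4 to 7 and between -0.64 and -0.08 in the others. The gene that fell was *Sil1*, a nucleotide exchange factor of BiP, with -1.37 ± 0.35 (adjusted p = 0.0184), named here after its value was seen.

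Of 16 expressed genes for the translocon and signal peptides, *Spcs3* and *Spcs2*, subunits of the signal peptidase, were those that passed, and both rose, with slopes of 0.80 ± 0.22 (SE, adjusted p = 0.0240) and 0.94 ± 0.28 (0.0290). These 2 of 16 are near the 13.6% of all probes that rose. *Sec63* had 0.53 (adjusted p = 0.0506). Of 16 expressed ERAD genes, *Sel1l*, a partner of the ubiquitin ligase HRD1, rose with a slope of 1.26 ± 0.26 (0.0163) and so did *Fam129a* with 0.89 ± 0.29 (0.0400), which encodes Niban, a protein raised by ER stress and not an ERAD enzyme, again 2 of 16. *Edem3*, which trims sugars of misfolded glycoproteins, had 0.67 (0.0582). The other 13 ERAD genes did not pass either, and the median slope of the list was -0.10, close to that of all probes and unlike the slope of *Herpud1*.

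In 3 shorter lists 2 of 8, 1 of 6 and 1 of 7 genes rose, beside 13.6% of all probes, and the last 2 are near that share. Among 8 sensor genes and their proteases, *Mbtps2*, a protease that cuts ATF6, rose with a slope of 1.30 ± 0.28 (SE, adjusted p = 0.0163) and *Atf6b* with 0.72 ± 0.18 (0.0181). *Ern1*, which encodes IRE1, had 0.71 (0.0534). Of 6 genes for eIF2alpha, its other kinases and its phosphatase, *Ppp1r15b*, a phosphatase subunit, rose with 0.72 ± 0.16 (0.0163), while *Eif2ak4*, the kinase GCN2, had 0.83 (0.101) and *Eif2s1*, eIF2alpha itself, 0.24 (0.429). Among 7 genes linked to cell death through CHOP, *Bcl2l11*, which encodes BIM, rose with 1.14 ± 0.32 (0.0242). Its probe did not meet the filter on signal above background in Cy3, so its ratio rests on a weak pool signal. *Bcl2*, which protects from cell death, and *Casp12* had -0.88 (0.0708) and -0.84 (0.0776).

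The 23 expressed ATF4 targets moved in both directions, with 11 that fell and 5 that rose, though with median centring none fell. These counts stand beside 17.1% of all probes that fell and 13.6% that rose. *Chac1*, an enzyme that degrades glutathione, fell with a slope of -2.29 ± 0.36, *Psat1*, an enzyme of serine synthesis, with -2.39 ± 0.52 and *Stc2*, a secreted glycoprotein, with -3.01 ± 0.69 (SE, each with an adjusted p of 0.0163). *Psat1* had log2 ratios between -1.22 and -0.50 in mice 4 to 7 and between -0.11 and 0.25 in the others, and *Stc2* between -1.36 and -0.93 and between -0.06 and 0.51. *Atf4* itself was highest in the mice in which these targets were lowest. The targets that rose, named after their values were seen, were *Gdf15* (4.89), *Atf3* (4.71), *Mthfd2* (1.57), *Cebpb* (0.84) and *Cars* (0.82). *Gdf15*, a cytokine, had log2 ratios between 1.00 and 1.55 in mice 4 to 7 and between -1.75 and -0.01 in the others.

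The list counts also depended on single mice. Without mouse 5 or without mouse 7, or over the 6 mice alone, 0 chaperones and 0 ATF4 targets passed. Without mouse 10 there were 4 rising chaperones and 6 falling and 0 rising ATF4 targets, and without mouse 9 there were 6, 6 and 2. With median centring 17 chaperones and 10 ATF4 targets rose and 0 of either fell, so the fall of ATF4 targets depended on the normalization. The cause of this difference was not tested. The lists were not tested as sets.

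**Figure D5:**
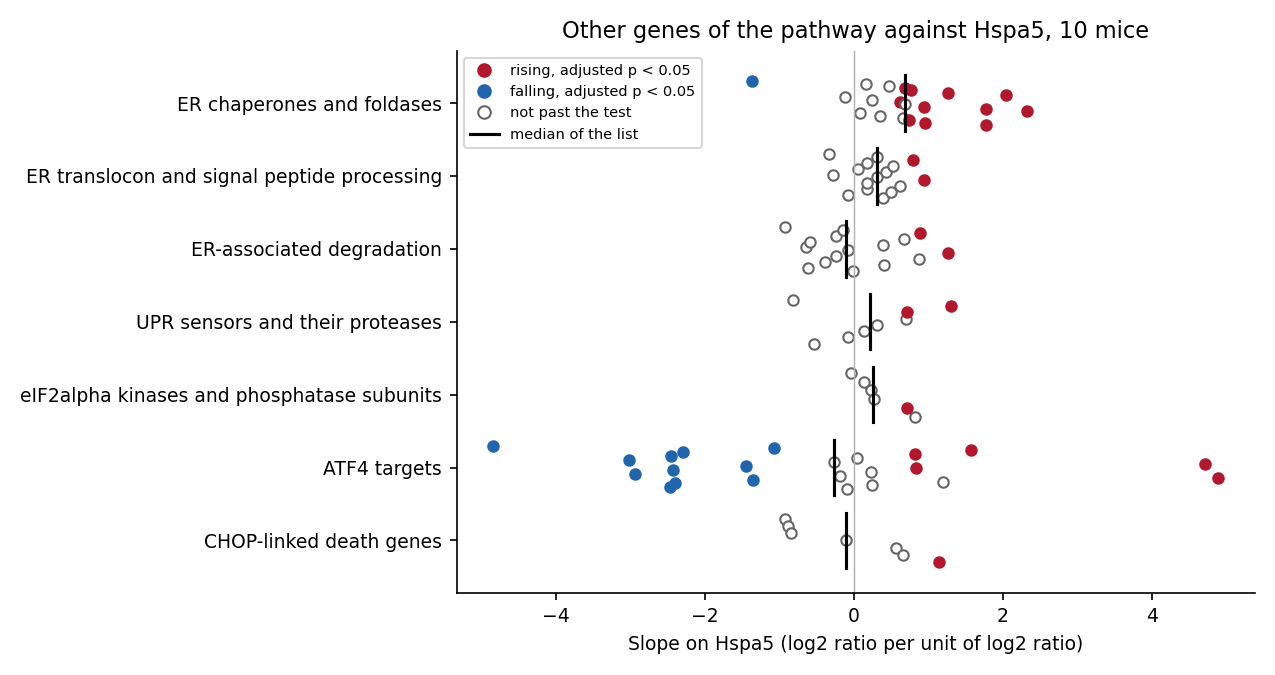
Slope of the log2 ratio on that of *Hspa5* over 10 mice for each expressed gene of 7 pathway lists, with 1 point per gene. Red points rose and blue points fell with *Hspa5* in limma's test, open points did not pass, and the black line is the median of the list. Most chaperones lie to the right, where 11 of 20 passed, and the ATF4 targets spread to both sides.

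The genes most like each of the 10 genes were those with the highest r over the 10 mice, described here by their r over the 6 mice that lie together. For *Calr* they were *Ap2m1* (0.96), *Spcs3* (0.98) and *Lrp1* (0.96), and for *Hsp90b1* *Enoph1* (0.97), *6030458C11Rik* (0.94) and *Zdhhc21* (0.94). For *Herpud1* they were *Rarres1* (0.96), *Pnrc1* (0.95) and *Vamp2* (0.95), for *Xbp1* *Gata6* (0.95), *AI661453* (0.95) and *Hoxa4* (0.95), and for *Atf4* *Tbc1d22a* (0.92), *Fabp7* (0.95) and *Ifngr2* (0.94). *Hspa5* was followed by *Madcam1* (0.82), *Prss34* (0.60) and *Pisd-ps3* (0.91), and *Dnajb9* by *Ppp1r27* (0.99), *Olfr1368* (0.87) and *P2rx3* (0.85). *Ddit3* was closest to *Thbs2* (0.93), *Rhbdf2* (0.92) and *Rsad2* (0.90), *Trib3* to *Gm4802* (0.97), *Snora47* (0.96) and *Med31* (0.92), and *Pdia4* to *Mageb1* (0.84), *Slc12a8* (0.58) and *Mapk8* (0.71). The genes nearest to each of the 10 did not include another of the 10. They were picked by r from the expressed genes whose symbol was found in RefSeq, over mice that include these 6. A high r over the 6 mice thus follows in part from the choice and is no test.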

How the data were processed

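The authors deposited 1 scanner file per array with intensity values, the mean brightness of each spot and the median of its local background in each dye (Agilent Feature Extraction 10.7.3.1, per the labels), not normalized. The same deposited files hold a log10 ratio of Cy5 over Cy3 that the software normalized. A further deposited table holds values that the authors normalized, in log2 units as judged from the values, whose method is not given in the sources used here. Both served as alternatives for differences between mice. The dyes were not swapped.

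Signals were corrected for background by normexp (offset 50) and normalized by loess within arrays, with limma 3.58.1 in R 4.3.3, and channel values by Aquantile between arrays. Control and outlier spots were left out. Expressed probes were the 27811 with Cy5 flagged above background on 5 or more of 10 arrays, and 25137 of them met this in Cy3 as well. A gene was represented by its brightest probe. Variances were compared by the Pitman-Morgan test (Python 3.11.15, scipy 1.17.1), and relations to *Hspa5* and *Ddit3* and the slide were fitted with limma, Benjamini-Hochberg adjusted over all probes, with a threshold of 0.05. Both steps were tested on simulated data. The number of arrays and the margin over background limit the precision. Gene symbols are those of the array, and all 10 were found in RefSeq (GRCm38.p6).

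The genes and the lists were chosen with earlier results of these data known. Genes named from a list are the 3 with the smallest adjusted p in the *Hspa5* fit, and for each of the 10 genes the 3 with the highest r. The rule that r is taken over the 6 mice where values for the other 4 mice do not overlap, or where a gap that leaves 3 or more mice on either side is 0.4 of the range or wider, was set after values had been seen. Planned comparisons of protein sequences were left out. Nothing in the labels names separate litters or cages, so p-values measure the spread between these mice.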

Additional observations from a re-analysis of the deposited data

How the results depend on the processing

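Only 1 normalization choice moved the levels beyond the spread between mice. Median centring in place of loess raised the median over expressed probes from 0.0031 to 0.32. With it the mean log2 ratio became 0.63 for *Hspa5*, 0.47 for *Hsp90b1*, 0.70 for *Calr*, 0.63 for *Pdia4*, 0.60 for *Dnajb9*, 0.41 for *Herpud1*, 0.43 for *Xbp1*, 0.83 for *Atf4*, 0.39 for *Ddit3* and 0.57 for *Trib3*. In the other alternatives (no background subtraction, the scanner software's log ratio, the mean over probes) these 10 means moved by less than 1 SD.

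The count of genes with Cy5 more variable than Cy3, which was 8, became 4 with median centring and 2 without normalization between arrays, and leaving out 1 mouse gave 7 to 8. The count of genes related to *Hspa5*, which was 5, became 8 with median centring, 3 with no filter on low signals, and 0 both over the 6 mice and without the 2 mice farthest from the median, and leaving out 1 mouse gave 0 to 5. With median centring the slopes on *Hspa5* turned to 0.37 for *Pdia4*, 0.30 for *Herpud1*, 0.56 for *Xbp1* and 0.64 for *Trib3*, and over the 6 mice that of *Herpud1* was 0.24. The cause of these changes was not tested. The counts for *Ddit3* and for the slide were 0 in every alternative run. Gaps between the lowest of mice 4 to 7 and the highest other mouse, or the reverse for *Herpud1*, were computed in 4 normalizations added after the data had been seen. They became -0.0173 for *Hsp90b1* in the scanner software's log ratio, and -0.81 and -0.21 for *Herpud1* with median centring and in the deposited values, where the mice overlapped. No paired analysis was possible because the samples form 1 group.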
